A study of Mus musculus with 30 samples.

Results

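The aortic response to CaCl2 at day 42 was compared between wild type (WT) and B cell-deficient (uMT) mice. The quantity measured is the difference between the genotypes' responses, (uMT CaCl2 minus uMT sham) minus (WT CaCl2 minus WT sham), called the interaction here. It drew on 12 of the 30 arrays of the series, chosen by their labels as 3 in each of 4 groups. The groups were WT sham, WT CaCl2, uMT sham and uMT CaCl2, all sampled at day 42. CaCl2 at 0.5 M, or saline in the sham operation, was laid on the outside of the abdominal aorta, a procedure used in mice to produce an aneurysm. Every mouse carried the strain label C57BL/6, and every sample, sham included, carried the tissue label of an abdominal aortic aneurysm. The labels gave no age, and did not say whether the 3 samples of a group came from separate mice or from pools. The p-values therefore measure the spread between samples within groups, pooled over all 30 arrays of the series. They need not measure the spread between mice.

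Antibodies are made by B cells and, in large amounts, by the plasma cells that B cells become. An antibody is built from heavy chains and kappa or lambda light chains, and each chain joins a variable segment to a constant region. Many similar variable segments lie side by side at each of the 3 chain loci, and the J chain links the units of IgM and IgA. In uMT mice the membrane form of the IgM heavy chain is disrupted, which stops B cell development at an early stage. Antibody bound to tissue can act on other cells through Fc receptors and the kinase Syk and through complement, and the title of the series names B cells, immunoglobulins and Syk.

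The features that carried the genotype difference were mostly probes of antibody chains. The sequences of 11 probes of these features, not all of them chains, are printed from the scanner files because they show what was hybridised. Each probe has 60 bases, is written 5′ to 3′, and has mm9 coordinates. The first pair are the probes of the kappa variable segments Igkv5-43 (chr6:69773526-69773585, minus strand) and Igkv5-45 (chr6:69725919-69725978, minus strand), which were identical at 55 of 58 aligned bases. Capitals mark the 3 bases that differ.
Igkv5-43: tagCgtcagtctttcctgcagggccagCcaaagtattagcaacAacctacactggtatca
Igkv5-45: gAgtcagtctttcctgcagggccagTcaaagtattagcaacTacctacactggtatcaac

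The next 4 are heavy chain variable segments, Ighv1-55 (chr12:116446433-116446492), Ighv1-77 (chr12:117100209-117100268), Ighv1-53 (chr12:116396734-116396793) and Ighv1-62-3 (chr12:116699334-116699393), all on the minus strand. Capitals mark the 19 bases that all 4 probes share.
Ighv1-55: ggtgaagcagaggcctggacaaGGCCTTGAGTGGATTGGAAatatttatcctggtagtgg
Ighv1-77: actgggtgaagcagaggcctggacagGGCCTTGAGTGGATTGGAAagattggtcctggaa
Ighv1-53: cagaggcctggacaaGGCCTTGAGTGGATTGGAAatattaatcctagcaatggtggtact
Ighv1-62-3: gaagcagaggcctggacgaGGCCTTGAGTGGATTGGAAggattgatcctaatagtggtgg

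The remaining 5 are printed without capitals. They are the kappa constant region Igkc (chr6:70676692-70676751, plus strand), the lambda variable segment Iglv1 (chr16:19085111-19085170, minus strand), a feature described as an immunoglobulin heavy gamma chain that the files name ENSMUST00000103418 (chr12:114544738-114544797, minus strand), LOC100505358 (chr16:19061905-19061964, minus strand) and a long intergenic non-coding RNA (lincRNA) on chromosome 9 (chr9:89168696-89168755, plus strand).
Igkc: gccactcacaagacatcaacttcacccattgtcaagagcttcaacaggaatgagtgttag
Iglv1: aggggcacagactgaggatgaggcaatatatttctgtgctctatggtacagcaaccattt
ENSMUST00000103418: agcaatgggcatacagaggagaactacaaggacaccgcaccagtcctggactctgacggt
LOC100505358: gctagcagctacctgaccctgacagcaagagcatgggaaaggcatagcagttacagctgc
lincRNA: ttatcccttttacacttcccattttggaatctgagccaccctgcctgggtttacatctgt

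Similar probes can share transcripts. Among 231 pairs of the lower features described below, 7 pairs, made up of 8 features, were at least 80% identical over at least 50 aligned bases. For 5 features the file listed several Ensembl transcripts under 1 probe, up to 4. The features are therefore not independent of each other, and a single variable segment cannot be told from a close relative.

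Levels are log2 signal relative to each array's 75th percentile, and a signal is called measured where the scanner software marked it well above background. On the 12 arrays 36.6% to 61.6% of probes were measured. WT sham replicate 2 gave the 36.6%, was alone on its slide and scan day, and correlated with its group mates at a mean r of 0.723, while the 9 arrays of the other 3 groups lay between 0.959 and 0.981. Values without it are given beside the results that it moves by most. The 3 WT CaCl2 arrays shared a slide with WT sham replicate 3, while WT sham replicates 1 and 2 lay on other slides. The uMT sham and uMT CaCl2 arrays lay on 2 different slides, so slide and response cannot be told apart in uMT mice. No slide held day 42 arrays of both genotypes, so slide and genotype cannot be told apart in sham or after CaCl2. As a check of the tissue label, all 18 contractile smooth muscle genes of the marker list were measured on every one of the 12 arrays.

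Of 23266 features tested with limma, 22 had a significantly lower response in uMT than in WT mice (0.0946% of all features) and 3 a significantly higher one (0.0129%), at an adjusted p under 0.05. Of the 22, 19 were immunoglobulin chains, 1 was Jchain, 1 was LOC100505358 and 1 the lincRNA. The other 3 were Dio2, an enzyme that activates thyroid hormone, Faim2, an inhibitor of Fas-mediated cell death, and Gab2, an adaptor of cytokine and Fc receptor signalling. Of the 19 chains, 13 were described as such in the files and 6 were matched through a RefSeq synonym. By position 10 features lay in the heavy chain locus (chr12:114496985-117238485), 8 in the kappa locus (chr6:67675577-70676751) and 1 in the lambda locus (chr16:19065462-19241363), as spanned by the chain features of the array. LOC100505358 lay 3.5 kb outside the lambda span.

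The 22 features shared a pattern, which is described here and was not tested again, since the same arrays chose them. All 22 rose in WT mice after CaCl2, where 6.79% of all features rose and 3.59% fell. None of the 22 changed in uMT mice by limma's adjusted or unadjusted p, where 4.62% of all features rose and 1.71% fell. Their uMT differences ran from -1.25 to 0.59, but 16 of the 22 were measured on no uMT array. None of the 22 differed between the genotypes in sham at an adjusted p (2 did at an unadjusted p), where 1.77% of all features were higher and 2.38% lower in uMT mice. Without WT sham replicate 2, Ighv1-55 and Ighv1-67 were higher in uMT sham, by 1.69 and 3.21 (limma adjusted p = 0.00690 and 0.00132). In that comparison 14.6% of all features were higher and 18.7% lower. No sham array of either genotype measured Ighv1-55, so its difference lay between background signals. Ighv1-67 was measured on 2 uMT sham arrays and on no WT sham array. All 22 were lower in uMT than in WT mice after CaCl2, where 1.12% of all features were lower and 0.189% higher. In none of the 22 did the WT CaCl2 arrays overlap the WT sham arrays or the uMT CaCl2 arrays. Their choice by these values made that likely, and no share over all features is given for it. The WT sham arrays include replicate 3, which lay on the slide of the WT CaCl2 arrays. Of the 22, 19 passed the filter on dim probes only through the WT CaCl2 groups of day 7 or day 42, where they had to be high. The interaction ran from -9.12 to -3.85 with a median of -5.58, against a median of -0.09 over all features.

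**Figure D1:**
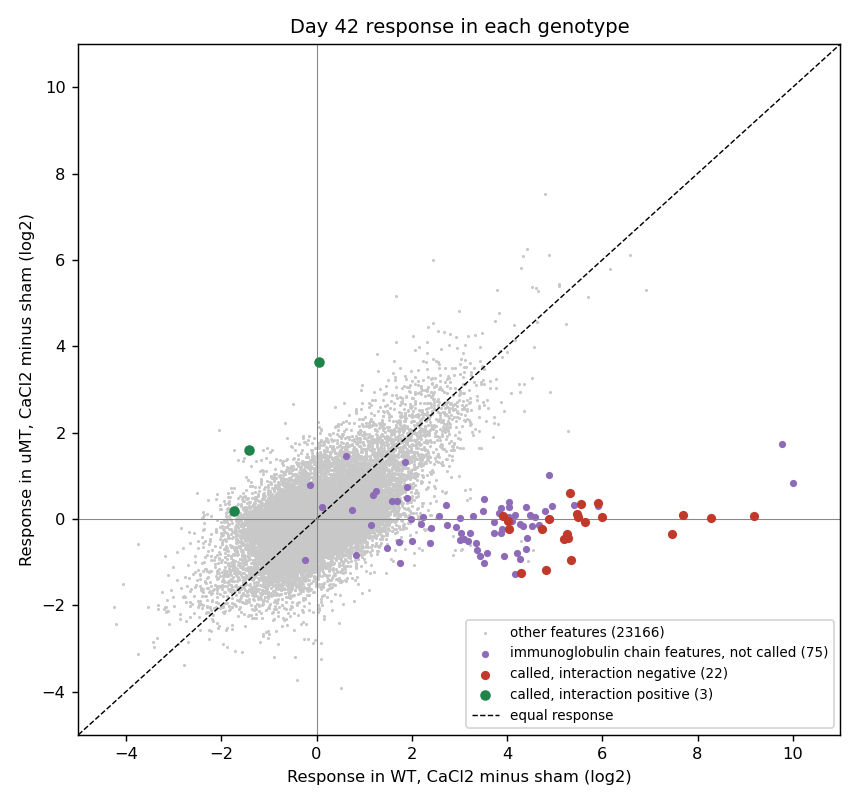
Response to CaCl2 at day 42 in WT mice (x axis) and uMT mice (y axis), each as CaCl2 minus sham in log2, for all 23266 features; the dashed line marks an equal response. The 22 features called lower lie to the right of zero on the x axis, between 3.92 and 9.19, and near zero on the y axis, between -1.25 and 0.59, while the 3 called higher lie above the line.

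Jchain (chr5:88949919-88949978) had the largest interaction of the 22. Its level was -1.91, -3.44 and -5.67 on the WT sham arrays and 4.44, 5.27 and 6.85 on the WT CaCl2 arrays. In uMT mice it was -5.96, -4.34 and -5.0 in sham and -3.86, -5.37 and -5.86 after CaCl2. The WT CaCl2 arrays stood apart from the other 9, and no uMT array measured the gene. The interaction was -9.12 ± 1.44 (SE, n = 3 arrays a group; limma adjusted p = 0.00796). After CaCl2 the level in WT mice was at least 378-fold that in uMT mice, a bound set by the background on the uMT arrays: in such bounds a group without a measured array stands at its own signal or the array's lowest measured signal, whichever is higher.

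Igkc, part of every kappa antibody, was at -0.07, -3.08 and -4.08 on the WT sham arrays, where only the first array measured it. After CaCl2 it stood at 4.75, 5.82 and 7.01 in WT mice. All 6 uMT arrays lay between -5.76 and -4.67 and none measured it. The interaction was -8.25 ± 1.65 (adjusted p = 0.0426), and the WT level after CaCl2 was at least 479-fold that in uMT mice. Its level had an SD of 2.09 among the WT sham arrays, and its call was kept in 10 of 25 alternative analyses.

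Iglv1 was measured on no WT sham array and on all 3 WT CaCl2 arrays, at 1.69, 3.10 and 3.99. Its WT response was at least 64.1-fold, and its WT level after CaCl2 was at least 62.5-fold that in uMT mice. Replicate 1 was the only uMT sham array to measure it, at -3.08, and no uMT CaCl2 array did. The interaction was -7.81 ± 1.02 (adjusted p = 0.00116), and the call was kept in 23 of 25 alternatives. The heavy gamma chain feature ENSMUST00000103418 was at 0.29, 0.11 and 2.73 on the WT CaCl2 arrays and was not measured on any of the other 9. Its interaction was -5.55 ± 0.97 (adjusted p = 0.0162).

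**Figure D2:**
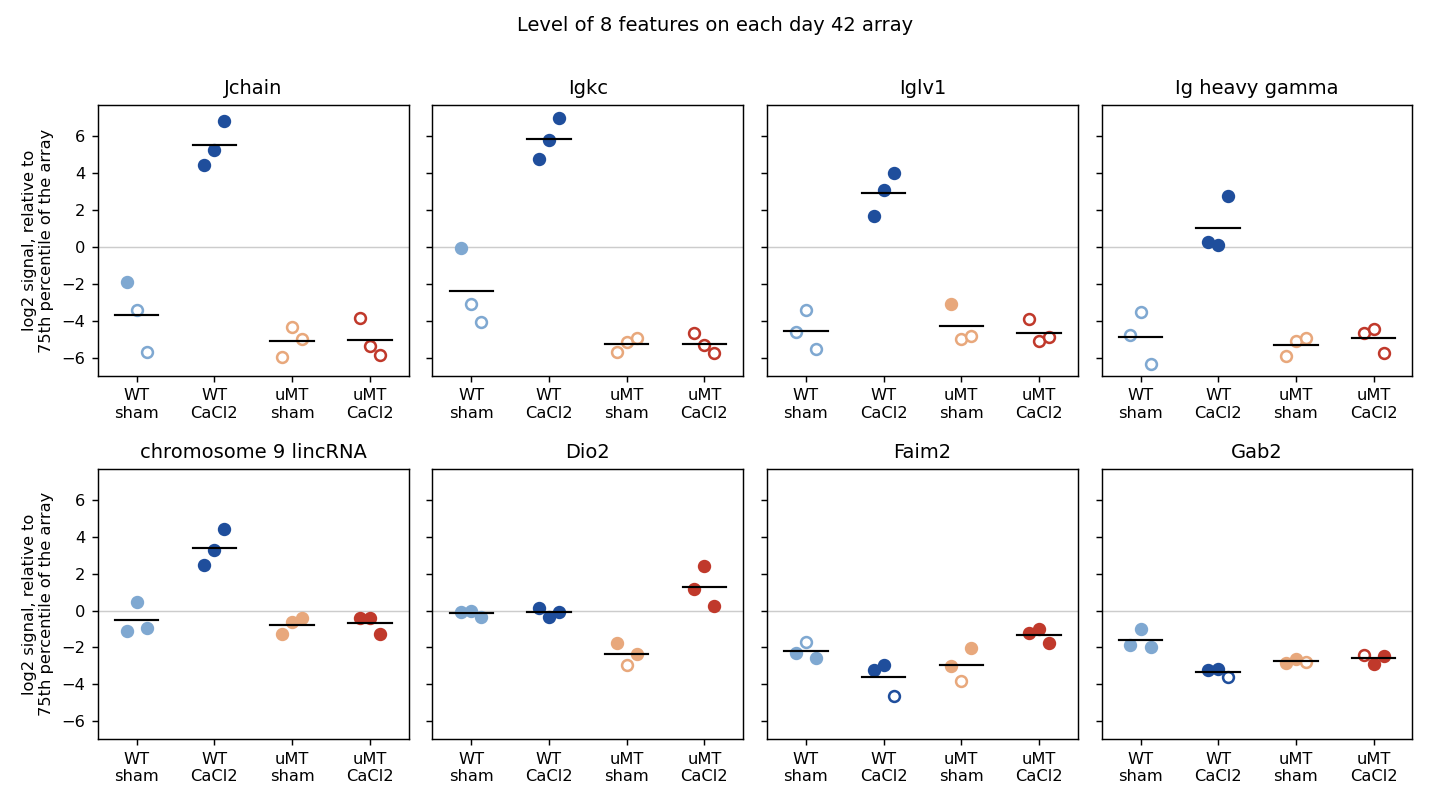
Level of 8 of the called features on each of the 12 day 42 arrays, as log2 signal relative to the 75th percentile of the array; filled points are well above background, open points are not, and the bars are means of 3 arrays. The first 5 features are high on the WT CaCl2 arrays alone, while Dio2 is lowest in uMT sham and highest in uMT CaCl2.

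The 16 other features of antibody chains included variable segments of both chain types. Igh-VJ558 carries the name of a heavy variable family, but its tested probe (chr12:114498348-114498407) lay outside the stretch of the called heavy segments (chr12:115298056-117238485). Its interaction was -7.59 ± 1.25 (adjusted p = 0.0119). The second probe under that name (chr12:116610609-116610667), inside the stretch, gave -2.83, so the 2 need not measure the same transcripts. Among heavy segments, Ighv1-55 gave -5.66 ± 0.75 and Ighv1-77 -5.21 ± 0.74, with adjusted p of 0.00116 and 0.00247. Ighv14-3, with an interaction of -4.07 ± 0.72 (adjusted p = 0.0178), alone among the 19 chains was measured on some arrays of all 4 groups. Among kappa segments, the interaction was -5.71 ± 1.04 for Igkv5-43 and -5.43 ± 1.0 for Igkv5-45, the pair of near-identical probes printed above. Igkv10-96 gave -5.95 ± 1.1 at its brighter probe and -2.51 at the other. The other 9 segments, 4 kappa and 5 heavy ones, lay between -5.99 and -4.28, with Ighv1-53 at -4.97 and Ighv1-62-3 at -4.73. For 16 of the 22 features no WT sham array measured the signal, and their WT response was at least 4.94-fold to 64.1-fold. For 20 no uMT CaCl2 array did, and the WT level after CaCl2 was at least 4.82-fold to 479-fold higher.

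Antibody chains as a class behaved like the called members, and many more of them missed the threshold. The array held 188 chain names, and 94 of them passed the filter on dim probes. Of these 94, 70 passed only through a WT CaCl2 group, so they had to be high there, and their counts are a description. In WT mice 78 of the 94 rose and none fell, with responses from -0.25 to 10 and a median of 3.92. In uMT mice none of the 94 changed by limma (3 at an unadjusted p under 0.05), with a range of -1.28 to 1.73. Of the 94, 65 were measured on no uMT sham array, 71 on no uMT CaCl2 array and 64 on no WT sham array. Over all 23266 features these counts were 1950, 2231 and 1400. For many of the 94, the uMT response and the sham comparison thus set background against background. The interaction was below zero for 91 of the 94, with a median of -4.08 (-4.88 without WT sham replicate 2). None of the 94 differed between the genotypes in sham by the test. Without that array 12 were higher and 2 lower in uMT sham, where 14.6% of all features were higher and 18.7% lower. In the interaction 19 were lower at an adjusted p, and 79 were at an unadjusted p, where 3.03% of all features were lower and 2.62% higher. The summed linear level of the 94, in units of the array's 75th percentile, was 4.69 to 41.6 in WT sham, 472 to 1589 in WT CaCl2, 8.4 to 9.74 in uMT sham and 7.25 to 12.1 in uMT CaCl2.

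The chain features with the largest responses were not among the called ones. XM_001472091 and XM_003085465, heavy chain features next to each other at the end of the heavy locus (chr12:114497090-114497149 and chr12:114496985-114497044), were picked here after their values were seen. XM_001472091 rose in WT mice by 10 log2 units, from -2.03, 0.02 and -4.42 to 7.07, 7.80 and 8.68. In uMT mice it stayed between -5.99 and -3.05. Its interaction was -9.17 ± 2.09 (adjusted p = 0.103; 0.0278 without WT sham replicate 2). XM_003085465 had -8.05 ± 2.28 (adjusted p = 0.395; 0.0865 without that array). In both features the WT sham arrays were further apart than those of any other group.

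**Figure D3:**
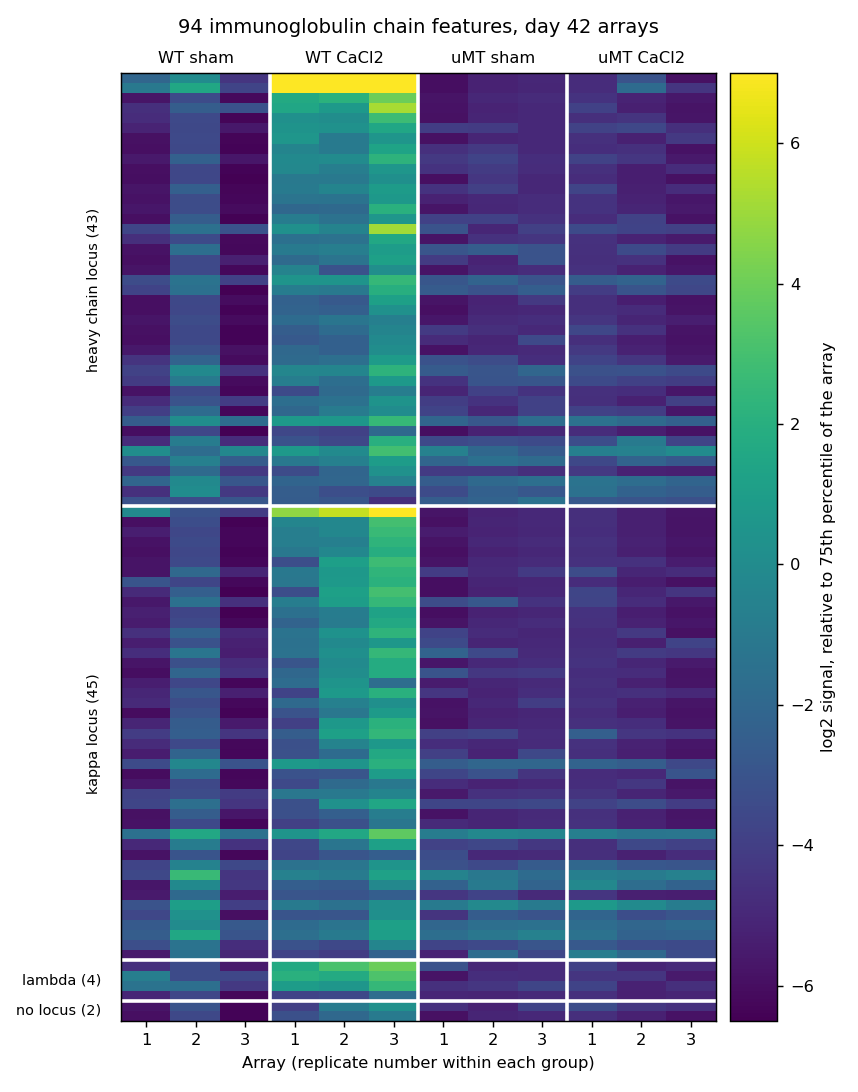
Level of the 94 tested immunoglobulin chain features (rows, grouped by locus and ordered by WT response) on the 12 arrays (columns), as log2 signal relative to the 75th percentile of the array. The 3 WT CaCl2 columns are brighter than the other 9 over most rows, and the second WT sham column is also brighter than its 2 neighbours over many rows.

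The lincRNA lay outside the chain loci, and it alone among the 22 was measured on all 12 arrays. It is annotated on the array at chr9:89167172-89168980, plus strand, as an intergenic transcript. Its level was -1.11, 0.44 and -0.93 in WT sham and 2.48, 3.27 and 4.42 in WT CaCl2. The uMT arrays read -1.27, -0.61 and -0.43 in sham and -0.43, -0.39 and -1.26 after CaCl2. The WT CaCl2 arrays again stood alone. The interaction was -3.85 ± 0.59 (adjusted p = 0.00692), and the call was kept in 23 of 26 alternatives. Its 2 other probes were not well above background on any of the 12 arrays, so 1 probe carries the result. The nearest tested feature, Mthfs, 58.6 kb away, had an interaction of -0.15 ± 0.69.

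Of the 3 features with a higher response in uMT mice, Dio2 rose in uMT mice and did not pass in WT mice. Its level was -0.10, -0.04 and -0.33 in WT sham and 0.12, -0.33 and -0.08 in WT CaCl2. In uMT sham it was -1.75, -2.96 and -2.37, and after CaCl2 1.15, 2.44 and 0.24. The uMT arrays thus lay below all WT arrays in sham and above them after CaCl2. Only uMT sham replicate 2 did not measure Dio2. The interaction was 3.58 ± 0.63 (adjusted p = 0.0176), the uMT response 3.63 (adjusted p = 5.20e-05) and the genotype difference in sham -2.20 (adjusted p = 0.00992).

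Faim2 moved in opposite directions in the genotypes. It was at -2.31, -1.68 and -2.56 in WT sham and -3.21, -2.98 and -4.64 in WT CaCl2, a fall of -1.42 (adjusted p = 0.0197; 0.0642 without WT sham replicate 2). In uMT mice it was at -2.99, -3.81 and -2.02 in sham and -1.23, -1.02 and -1.77 after CaCl2, a rise of 1.6 (adjusted p = 0.0134). Groups did not overlap within either genotype, but WT sham replicate 2, WT CaCl2 replicate 3 and uMT sham replicate 2 did not measure Faim2. The interaction was 3.02 ± 0.55 (adjusted p = 0.0192).

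Gab2 fell in WT mice, from -1.85, -0.98 and -1.97 to -3.22, -3.15 and -3.60 (-1.72, adjusted p = 3.39e-04). The uMT arrays gave -2.87, -2.62 and -2.80 in sham and -2.40, -2.88 and -2.45 after CaCl2, a difference of 0.18 (adjusted p = 0.812). Its uMT sham level was already lower than in WT sham, by -1.16 (adjusted p = 0.0158). WT CaCl2 replicate 3, uMT sham replicate 3 and uMT CaCl2 replicate 1 did not measure Gab2. The interaction was 1.91 ± 0.37 (adjusted p = 0.0358), kept in 9 of 26 alternatives. Dio2 and Faim2 were each kept in 18 of 26.

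The count of calls moved with the treatment of WT sham replicate 2 and with the arrays that set the spread. Without that array 96 features were lower (0.413%) and 8 higher (0.0344%), including all 25; of the 96, 58 were antibody chains. With the spread estimated from the 12 arrays alone none was called (389 at an unadjusted p), and with the 12 alone but without that array 18 were lower (0.0774%), 10 of them among the 25. With slide as a random block none was called, and 162 were in that analysis without the array. Leaving out WT CaCl2 replicate 3 left 4 calls, uMT sham replicate 2 5, uMT CaCl2 replicate 2 8, uMT CaCl2 replicate 3 9 and uMT sham replicate 3 11, while leaving out WT CaCl2 replicate 1 gave 51. None of the 25 changed sign in any alternative.

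**Figure D4:**
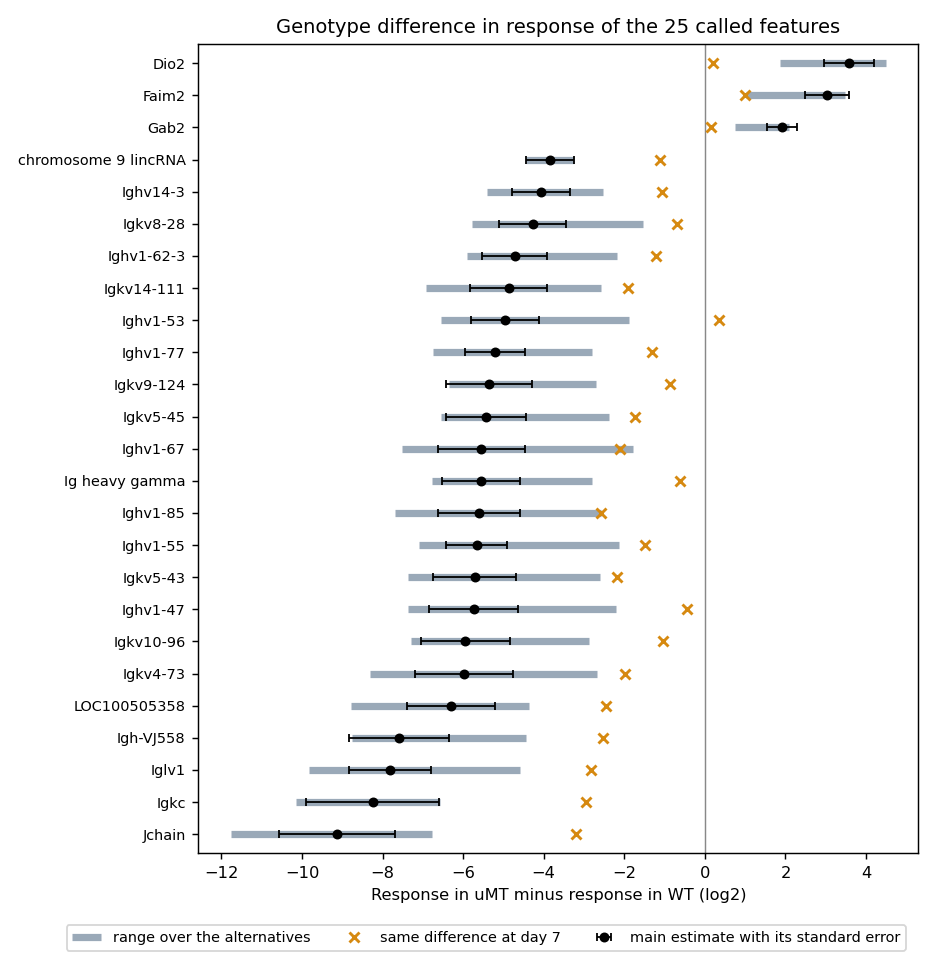
Interaction at day 42 (points, with the standard error of the fit), its range over the alternative analyses (grey bars) and the same difference at day 7 (crosses), in log2, for the 25 called features. No bar crosses zero, and the day 7 values lie nearer to zero than the day 42 values in every feature.

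At day 7 the same difference, from 12 other arrays, called no feature (0.0%; lowest adjusted p = 0.245, and 982 features, 4.22%, at an unadjusted p under 0.05). Of the 22 lower features, 21 had the same sign at day 7 and 5 had an unadjusted p under 0.05, with a median of -1.62. Jchain was at -3.19, Igkc at -2.96 and Iglv1 at -2.82 at day 7. Dio2, Faim2 and Gab2 were at 0.21, 0.99 and 0.15. The difference between the days called no feature either (0.0%; lowest adjusted p = 0.974, and 727 features, 3.12%, at an unadjusted p). All 25 had an unadjusted p under 0.05 in it, but it contains the day 42 values that chose them, so this count is no support. A difference between the days was not shown after adjustment.

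Marker genes of B cells and plasma cells, chains left aside, rose in part in WT mice and passed the interaction test in 1 case, Jchain. Beside the counts of this and the later lists, 6.79% of all features rose and 3.59% fell in WT mice. Without WT sham replicate 2 these shares were 7.14% and 5.13%. In uMT mice 4.62% rose and 1.71% fell. At an unadjusted p 3.03% of all features were lower and 2.62% higher in the interaction. The B cell list had 14 genes that passed the filter. All 14 were measured on the 3 WT CaCl2 arrays, where 20195 of the 23266 features were. To pass, a gene had to be measured on all 3 arrays of at least 1 group. The filter thus sets that count in part, since only 4 and 5 of the 14 were so measured in WT sham and uMT sham. In uMT CaCl2, 4 of the 14 were measured on all 3 arrays and 6 on none, against 17683 and 2231 of all features. In WT mice 6 of the 14 rose and in uMT mice 2. None passed in the interaction (2 lower and none higher at an unadjusted p), and its median was -0.95 (-1.44 without WT sham replicate 2). After CaCl2 5 of the 14 were lower in uMT mice, where 1.12% of all features were lower and 0.189% higher. Pou2af1, a B cell transcription coactivator, rose in WT mice from -3.14, -3.57 and -4.65 to -1.46, -1.09 and 0.33. No uMT array measured it, and its interaction was -3.0 ± 0.79 (unadjusted p = 0.000971, adjusted p = 0.285).

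Other B cell genes fell short as well. The interaction was -2.59 ± 0.90 for Vpreb3, a relative of the surrogate light chain, -0.98 ± 0.54 for the receptor chain Cd79a and -1.31 ± 0.98 for its partner Cd79b. Ms4a1, the gene of CD20, was at -1.49, -0.71 and -5.38 in WT sham and -1.56, -2.42 and -0.73 in WT CaCl2, and no uMT array measured it. It did not change in WT mice by the test (0.95, adjusted p = 0.469), and its interaction was -1.63 ± 1.23. The 2 genes of the list that rose in uMT mice were Cd72 and Spib, named here after their values were seen. Cd72, a B cell receptor also made by other leukocytes, rose by 3.51 in WT and 3.48 in uMT mice, with an interaction of -0.04 ± 0.55.

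Of 12 genes of the plasma cell list 3 rose in WT (4 without WT sham replicate 2) and 2 in uMT mice, and Jchain alone was called in the interaction. Derl3, which clears misfolded proteins in secretory cells, was at -1.91, -3.50 and -3.48 in WT sham and -1.72, -0.76 and -0.17 in WT CaCl2. In uMT mice it was measured on 1 of 6 arrays. Its interaction was -2.39 ± 0.69 (unadjusted p = 0.00204, adjusted p = 0.420). Tnfrsf17, the plasma cell survival receptor, gave -1.48 ± 0.72, and the folding enzyme Pdia4 0.76 ± 0.36. In these bulk samples fewer antibody-making cells and less antibody RNA per cell cannot be told apart.

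Genes of Fc receptor and Syk signalling rose in both genotypes. Of 18 measured, 14 rose in WT mice (13 without WT sham replicate 2, where 7.14% of all features rose and 5.13% fell), 15 rose in uMT mice and 14 rose in both. None passed in the interaction at an adjusted or unadjusted p. The median interaction turned sign with 1 array, at -0.21 with WT sham replicate 2 and 0.68 without it, and the median WT response was 2.39 with it and 1.70 without it, against 2.41 in uMT mice. Syk was at 1.43, -0.51 and 1.59 in WT sham and 2.89, 2.77 and 2.61 in WT CaCl2. The uMT arrays put it at 1.67, 1.0 and 0.56 in sham and 3.08, 3.04 and 2.87 after CaCl2. It rose by 1.92 in WT and by 1.93 in uMT mice, with an interaction of 0.01 ± 0.65 and a 95% interval of -1.33 to 1.35, so a difference of over 1 log2 unit either way was within the error. Without WT sham replicate 2 the WT rise of Syk was 1.24 (adjusted p = 0.0473) and the interaction 0.68.

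Fcer1g, the signalling chain shared by several Fc receptors, rose by 3.12 in WT and 2.41 in uMT mice, and its interaction was -0.70 ± 1.02 (95% interval -2.80 to 1.4). Without WT sham replicate 2 the WT rise of Fcer1g was 1.73 (adjusted p = 0.0245) and its interaction 0.68. Lcp2, an adaptor downstream of Syk, rose by 1.66 and 2.88, with an interaction of 1.22 ± 0.62 (-0.05 to 2.49).

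Of 16 complement genes, 12 rose in WT mice (9 without WT sham replicate 2) and 8 in uMT mice, 7 of them in both. None passed in the interaction, and 2 were lower at an unadjusted p. Cfi, the protease that inactivates C3b and C4b, was at -5.69, -3.36 and -6.08 in WT sham and -0.13, 0.80 and 0.01 in WT CaCl2. Its uMT values were -5.71, -4.96 and -3.92 in sham and -1.62, -2.37 and -4.52 after CaCl2. It rose in WT mice by 5.27 (adjusted p = 2.80e-04) and not by the test in uMT mice (2.03, adjusted p = 0.135). The interaction was -3.24 ± 1.11 (unadjusted p = 0.00750, adjusted p = 0.732). C4b rose by 3.05 in WT and 2.15 in uMT mice, with an interaction of -0.91 ± 0.42.

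Of 18 macrophage genes 15 rose in WT mice (9 without WT sham replicate 2) and 7 in uMT mice. None passed in the interaction at an adjusted or unadjusted p. Their median response was 2.92 in WT and 2.34 in uMT mice, but the WT median was 1.78 without that array, so the order of the genotypes rested on it. Over the 18 genes the interaction was below zero for 13 and above zero for 5, with a median of -0.44 (0.53 without that array). Cd14, a receptor of bacterial lipopolysaccharide, was among the 5. It rose by 2.51 in WT (1.56 without that array) and 3.65 in uMT mice. Of 18 T and NK cell genes 9 rose in WT mice, the same 9 as in uMT mice, but 7 rose in WT mice without that array, and none passed in the interaction at either p. Of 25 chemokines and cytokines 11 rose in WT (7 without WT sham replicate 2) and 14 in uMT mice, 9 in both, and none passed in the interaction at either p. Il1b rose by 4.42 in WT and 6.25 in uMT mice. Ccl2, which draws monocytes, rose in uMT mice by 4.34 (adjusted p = 0.00279) and missed the threshold in WT mice (2.55, adjusted p = 0.0540), and Il6 did likewise (3.85 and 3.08). The interactions were 1.79 ± 1.19 for Ccl2 and 0.76 ± 1.51 for Il6.

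Of 9 genes of MHC class II presentation 5 rose in WT (4 without WT sham replicate 2) and 6 in uMT mice. None passed in the interaction, which was above zero for 5 and below zero for 4. Its median was 0.07 (0.69 without that array), and only H2-Aa had an unadjusted p under 0.05. H2-Aa, an MHC class II chain, was at 4.62, 5.33 and 4.09 in WT sham and 5.22, 4.77 and 5.41 in WT CaCl2. The uMT values were 3.6, 1.88 and 1.83 in sham and 4.53, 4.53 and 4.42 after CaCl2. It was lower in uMT sham by -2.24 (adjusted p = 0.00335) and rose in uMT mice (2.06, adjusted p = 0.00116), with a WT difference of 0.45 (adjusted p = 0.40). Its interaction was 1.6 ± 0.51 (unadjusted p = 0.00437, adjusted p = 0.607).

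**Figure D5:**
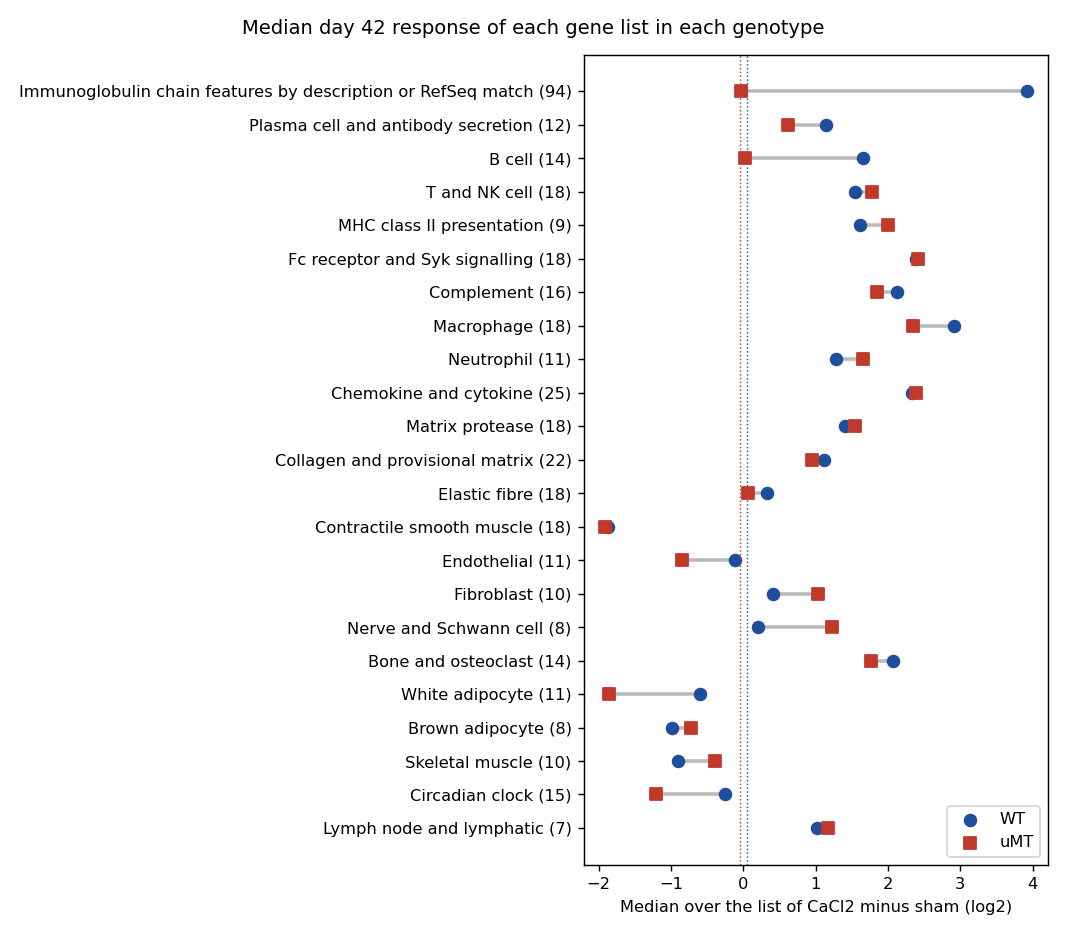
Median response to CaCl2 at day 42 over each of 23 gene lists in WT (circles) and uMT mice (squares), in log2, with the number of measured genes in brackets; dotted lines mark the medians over all features. The immunoglobulin chains stand at 3.92 in WT and -0.03 in uMT mice, while the Fc receptor list stands at 2.39 and 2.41, all with WT sham replicate 2 included.

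Genes of the vessel wall gave no call in the interaction. Of the 18 contractile smooth muscle genes, 10 fell in WT mice (14 without WT sham replicate 2) and 6 in uMT mice, 5 of them in both, with none called in the interaction and a median of 0.05 (0.35 without that array). Myh11, the smooth muscle myosin, fell in WT mice by 3.11 (adjusted p = 0.00539), from 7.05, 9.29 and 7.30 to 5.63, 4.5 and 4.19. In uMT mice it differed by -2.14 (adjusted p = 0.0636), from 7.33, 7.95 and 8.33 to 5.64, 5.33 and 6.24, and its interaction was 0.97 ± 0.97. Npnt, a matrix ligand of integrins, fell in WT mice by 4.06, and its interaction was 2.55 ± 1.14 (unadjusted p = 0.0351, adjusted p = 0.774).

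Of 18 elastic fibre genes 3 rose in WT mice and 1 in uMT mice, where 6.79% and 4.62% of all features rose. None passed in the interaction (1 lower at an unadjusted p, where 3.03% of all features were lower). Eln, the elastin gene, differed by -0.94 in WT and -0.89 in uMT mice, and its interaction was 0.05 ± 1.04 (95% interval -2.10 to 2.20; -0.44 without WT sham replicate 2). The matrix protease list had 18 measured genes, of which 8 rose (4 without WT sham replicate 2) and 1 fell in WT mice, 7 rose in uMT mice and 3 rose in both. The gelatinase Mmp2 was at 3.15, -2.74 and 3.15 in WT sham and 4.26, 4.26 and 3.87 in WT CaCl2. Its WT rise of 2.94 (adjusted p = 0.0320) was 0.98 (adjusted p = 0.0682) without WT sham replicate 2, the array with the low value. Its interaction was -0.57 ± 1.24, and 1.39 without that array. Mmp9, the other gelatinase, had an interaction of 0.68 ± 1.92, Mmp11 -1.54 ± 0.45 (adjusted p = 0.469) and the stromelysin Mmp3 1.73 ± 0.74.

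Of 22 genes of collagen and provisional matrix, 11 rose in WT mice (5 without WT sham replicate 2) and 7 in uMT mice. Bgn, the proteoglycan biglycan, was at 4.67, 6.2 and 5.04 in WT sham and 3.70, 3.37 and 3.16 in WT CaCl2. All 6 uMT arrays lay between 2.93 and 3.61. It fell in WT mice by 1.90 (adjusted p = 8.65e-04) and differed by 0.06 in uMT mice, and its interaction was 1.96 ± 0.46 (unadjusted p = 2.87e-04, adjusted p = 0.126). Spp1, the gene of osteopontin, rose by 6.92 in WT and 5.30 in uMT mice, with an interaction of -1.62 ± 1.66.

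Several circadian clock genes fell in uMT mice after CaCl2. Of 15 measured, 6 fell in uMT mice and none changed in WT mice at an adjusted p (1 fell without WT sham replicate 2). None passed in the interaction; 5 were lower and 1 higher at an unadjusted p, and the median was -0.84. Ciart, a repressor of the clock, was at -0.49, -2.06 and -0.13 in WT sham and -0.42, -0.39 and -0.31 in WT CaCl2. In uMT sham and CaCl2 it was at 0.15, 0.65 and 0.74 and at -1.37, -2.94 and -5.88. The uMT CaCl2 arrays lay below the uMT sham arrays and spread widely. The interaction was -4.43 ± 0.97 (unadjusted p = 1.30e-04, adjusted p = 0.0813), and -3.85 (adjusted p = 0.0968) without WT sham replicate 2.

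Dbp, a clock output transcription factor, was at 6.42, 4.63 and 6.70 in WT sham and 6.10, 5.95 and 6.66 in WT CaCl2. In uMT mice it fell from 6.40, 6.75 and 7.03 to 5.21, 4.92 and 3.73, by 2.11 (adjusted p = 0.00992). Its interaction was -2.42 ± 0.69 (adjusted p = 0.397). Bhlhe41, another repressor, gave -1.24 ± 0.40, and Clock itself 1.06 ± 0.32 in the other direction. The labels give no time of day for the sampling, and its part in these values was not tested.

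Other cell types in the tissue showed no call in the interaction apart from Dio2 in the brown adipocyte list. Of 8 brown adipocyte genes 4 fell in WT mice (2 without WT sham replicate 2) and 1 rose and 1 fell in uMT mice. The summed level of the list was 8.08 to 15.2 in WT sham, 5.11 to 6.09 in WT CaCl2, 7.75 to 13.2 in uMT sham and 5.34 to 8.95 in uMT CaCl2. The uMT groups overlapped in this sum while they did not in Dio2, and the part of these cells in the Dio2 result was not tested. Otop1, a proton channel of the same list, fell in WT mice by 2.21, and its interaction was 1.86 ± 0.49 (unadjusted p = 9.19e-04, adjusted p = 0.279). White adipocyte genes had a median interaction of -1.57 over 11 genes (-0.46 without WT sham replicate 2), with none at an unadjusted p under 0.05.

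Of 8 nerve and Schwann cell genes 4 rose in uMT mice and 1 in WT mice, and 3 were higher in the interaction at an unadjusted p. Among these were the Schwann cell transcription factor Sox10 at 1.16 ± 0.45 and the nerve growth factor receptor Ngfr at 1.58 ± 0.66, each with an adjusted p of 0.774. Over the 8 genes the interaction was above zero for 5 and below zero for 3. Its median was 0.11 (0.75 without WT sham replicate 2). Of 11 endothelial genes 1 fell in WT and 2 in uMT mice. Vwf, the von Willebrand factor gene, fell in uMT mice by 1.63 (adjusted p = 0.0172) and differed by 0.09 in WT mice, and its interaction was -1.73 ± 0.58 (unadjusted p = 0.00679, adjusted p = 0.718).

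Some genes differed between the genotypes, which slide cannot be told apart from, without a called difference in response. Nnt, a mitochondrial transhydrogenase that is disrupted in the C57BL/6J substrain, was at 2.21, 0.58 and 1.90 in WT sham and 1.66, 1.85 and 1.76 in WT CaCl2. The uMT values were 3.61, 3.58 and 3.79 in sham and 2.95, 3.35 and 3.23 after CaCl2. No uMT array overlapped a WT array. The genotype difference was 2.09 in sham and 1.42 after CaCl2 (adjusted p = 0.00126 and 0.00551), and the interaction was -0.67 ± 0.38 (adjusted p = 0.774). Map1b, a microtubule-associated protein gene, was higher in uMT mice by 2.87 in sham and 2.52 after CaCl2, with an interaction of -0.35 ± 0.74 (0.29 without WT sham replicate 2). The sulfatase gene Arsk was higher by 1.49 and 1.75 at its brighter probe, with an interaction of 0.26 ± 0.33. The other Arsk probe went the opposite way, from -0.23 and 0.08 in WT sham and CaCl2 to -4.67 and -3.67 in uMT mice.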

How the data were processed

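Total RNA of mouse aorta was measured on 1-colour Agilent arrays, 1 array a sample. The deposited scanner files hold spot intensity on a linear scale, made by the authors with Agilent Feature Extraction 10.7.1.1, per the file headers (the submitters' processing notes name 9.5.1.1). The labels name 2 RNA extraction kits, so which was used is not settled. A matrix of processed intensity deposited by the authors served as an alternative. Spots of a probe were averaged, and log2 processed signal was centred on each array's 75th percentile, so a change common to most genes is removed. Probes well above background on all 3 arrays of at least 1 of 10 groups were kept, and the brightest stood for a name, which gave 23266 features, 16021 of them with a RefSeq symbol.

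All 30 arrays entered a limma fit (version 3.58.1, R 4.3.3) with a mean for each of the 10 groups, and the spread of every group thus enters each standard error. P-values were adjusted by Benjamini-Hochberg over all features within each of 7 comparisons. The script was tested on simulated data. The number of arrays limits the precision. Alternatives changed the background correction, normalization, filter, choice of probe, arrays in the fit, replicate block, slide, array weights and single arrays; the fit of the compared groups without WT sham replicate 2 was chosen after seeing the data.

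Named are the called features with a symbol and no overlap between CaCl2 and sham in a genotype, up to 14 a sign, plus 20 genes given by symbol, up to 4 of a list by the smallest p in the interaction, and up to 4 immunoglobulin features. The lincRNA, LOC100505358 and the immunoglobulin features beyond these were added after their values were seen. The members, lists and named genes were chosen with earlier results of these data known, so no list is independent support. Replicate numbers did not pair the samples: the deviations of same-numbered day 42 arrays had a mean r of -0.021 over 18 pairs (-0.427 to 0.457), against 0.0083 for other numbers. Some members of the B cell and nerve lists are not reported here by name.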

Additional observations from a re-analysis of the deposited data

Results flagged for a closer look

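The 25 results below are those for which the responses of the genotypes at day 42 differed by the test of that difference itself (limma's interaction, adjusted p under 0.05). With 3 arrays in a group, no array was tested for standing apart from its group. Values are log2 differences, uMT response minus WT response.

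Below zero were Jchain at -9.12, Igkc at -8.25, Iglv1 at -7.81, Igh-VJ558 at -7.59 and LOC100505358 at -6.30. The kappa segments Igkv10-96, Igkv5-43, Igkv5-45 and Igkv8-28 stood at -5.95, -5.71, -5.43 and -4.28. The kappa segments under ENSMUST00000103345, ENSMUST00000103312 and ENSMUST00000103320 stood at -5.99, -5.36 and -4.87. The heavy segments Ighv1-47, Ighv1-55, Ighv1-85 and Ighv1-67 stood at -5.74, -5.67, -5.62 and -5.55. The heavy gamma chain feature ENSMUST00000103418 stood at -5.55. The heavy segments Ighv1-77, Ighv1-53, Ighv1-62-3 and Ighv14-3 stood at -5.21, -4.97, -4.73 and -4.07. The chromosome 9 lincRNA stood at -3.85. Above zero were Dio2 at 3.58, Faim2 at 3.02 and Gab2 at 1.91.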

How the results depend on the processing

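None of the 25 called features changed sign in any alternative, but their calls did not all hold. Leaving out the dim arrays (under 50% of probes measured) leaves 1 array each in uMT sham and uMT CaCl2 at day 42, which is assumed to vary like the other groups, so calls gained or lost there say nothing about stability. Calls in the day 42 interaction numbered 803 with array weights, 62 with the authors' matrix, 70 with quantile normalization, 40 with normexp and quantile normalization, 5 with a filter of 15 arrays, 52 without the 6 dim arrays, 0 in a fit of the 12 arrays by themselves (389 at an unadjusted p), 0 where slide was a random block, and 162 with that block without WT sham replicate 2. In the alternative chosen after seeing the data, a fit of the compared groups without that array, there were 18 (10 of the 25). Leaving out 1 array gave 4 to 104 calls, with 4 without WT CaCl2 replicate 3 and 104 without WT sham replicate 2.

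At day 7, against 0 calls, there were 739 with array weights, 16 with the compared groups alone, 47 with the slide block without WT sham replicate 2, 5 without the dim arrays, and 0 to 3 with 1 array left out (3 without uMT CaCl2 day 7 replicate 1). For day 42 minus day 7, against 0, there were 16 with array weights, 5 with normexp, 2 each with the authors' matrix, quantile normalization, the slide block without WT sham replicate 2 and that later alternative, 11 without the dim arrays, and 0 to 2 with 1 array left out.

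The WT response, with 2415 calls, gave 6075 with array weights, 0 with the compared groups alone, 1066 with the slide block, 4019 without the dim arrays and 1286 to 6218 with 1 array left out (1286 and 1411 without WT CaCl2 replicates 2 and 3, 6218 and 6103 without WT sham replicates 1 and 3). The uMT response, with 1473, gave 4923 with array weights, 619 with the compared groups alone, 0 with the slide block, 4878 with that block without WT sham replicate 2, 45 without the dim arrays and 496 to 1683 with 1 array left out (641 and 808 without uMT CaCl2 replicates 1 and 2, 850 and 496 without uMT sham replicates 2 and 3). The genotype difference in sham, with 964, gave 9746 with array weights, 0 with the compared groups alone, 19 with that later alternative, 404 with no filter, 1789 with normexp, 0 with the slide block, 8953 with it without WT sham replicate 2, 47 without the dim arrays and 66 to 7747 with 1 array left out. After CaCl2, with 305, it gave 7022 with array weights, 133 with the filter of 15 arrays, 171 with no filter, 667 with normexp, 461 with quantile normalization, 0 with the slide block, 5566 with it without WT sham replicate 2 and 81 to 261 with 1 array left out. The causes were not tested.

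With the replicate number as a block there were 18 calls in the day 42 interaction, 0 at day 7, 0 between the days, 2269 in the WT response, 1428 in the uMT response, 733 in sham and 219 after CaCl2. The numbers did not pair the arrays: 4 of 12 day 42 arrays correlated best with their own number.

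Signs that turned in the interaction were all of uncalled genes. Syk gave -0.0909 with the authors' matrix, -0.0586 with normexp, -0.0259 with the percentile over common probes, -0.0821 with quantile normalization, -0.0402 without the dim arrays and -0.37 to 0.68 with 1 array left out. Fcer1g gave 0.57 with array weights, 0.82 with the slide block and 0.68 in each analysis without WT sham replicate 2, with -1.49 to 0.68 when 1 array was left out. Mmp2 gave 1.67 with array weights (adjusted p = 0.0420), 1.61 with the slide block, 0.19 without the dim arrays and 1.39 in each analysis without that array, with -1.55 to 1.39 when 1 array was left out. Mmp9 gave -0.45 with the slide block, -0.20 without the dim arrays and -0.14 (without WT sham replicate 1) to 1.49 with 1 array left out. Eln gave -0.63 with array weights, -0.74 with the slide block, -0.42 with it without WT sham replicate 2, -0.44 in that later alternative and -0.83 to 0.81 with 1 array left out. Map1b gave 0.24 with array weights, 0.79 with the slide block, 0.26 with it without WT sham replicate 2, 0.29 in that later alternative, 0.97 without the dim arrays and -0.80 to 0.29 with 1 array left out. Myh11 gave -0.22 and Cd79b 1.03 with array weights, and Il6 -0.60 without the dim arrays.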
